A study of Mus musculus with 12 samples.

Results

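Platelet-derived growth factors (PDGFs) and their receptors were followed by RNA sequencing in mouse pancreatic tumors in which a mutant p53 could be switched on and off. The set was chosen by name and holds 6 of the 22630 genes in the files, namely the ligand genes Pdgfa, Pdgfb, Pdgfc and Pdgfd and the receptor genes Pdgfra and Pdgfrb. All 12 tumors grew under the skin from 1 cell line, KCip53-1, derived by sorting dsRed-positive cells of a mouse whose alleles included Ptf1a-Cre, TREp53R270H and, in homozygous form, R26-rtTa. In such mice Cre acts in the pancreatic epithelium, where it turns on rtTa, and doxycycline (dox) then lets rtTa drive p53R270H together with a dsRed reporter. Every tumor of every group therefore carried the inducible transgene, and the study's own analysis of the line found that wild-type p53 had been lost. The hosts were NSG mice aged 8 to 10 weeks, an immunodeficient strain without mature lymphocytes that keeps its own macrophages, fibroblasts and vessels. No-dox tumors (n = 4) never received dox. Plus-dox tumors (n = 4) had 36 days of dox at 0.2 g/L in 5% sucrose, and off-dox tumors (n = 4) had 33 days of it followed by 3 days without. Where values of the groups stand in a row, they are in this order. Each mouse carried 2 tumors and the labels do not tell which tumors shared a host, so all p-values treat tumors as independent and are too small if hosts were shared.

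PDGFs act as dimers on a pair of receptor tyrosine kinases. The alpha receptor binds A, B and C chains, and the beta receptor binds B and D chains. The C and D chains are secreted as latent factors whose CUB domain has to be cut off by proteases before they can bind, whereas A and B chains are processed inside the cell by furin-like convertases. In pancreatic cancer the ligands are mostly made by carcinoma cells, platelets and endothelium. The receptors sit mainly on mesenchymal cells, the alpha receptor on fibroblasts and the beta receptor on fibroblasts and on the mural cells (pericytes and smooth muscle) that wrap vessels.

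Among the 6 genes, the RNAs of Pdgfc and Pdgfd varied together most closely across the tumors, and the 250 bases before their RefSeq start sites are shown for that reason. Both genes lie on the plus strand, and each window matched the mm9 genome, the build of the files, at 1 position on its chromosome. The Pdgfc window (chr3:80840088-80840337) ends at the base before the gene's start in the files, and the Pdgfd window (chr9:6168236-6168485) ends 126 bases before it. RefSeq's promoter table (GRCm38.p6) held windows for 4 of the 6 genes. Capitals mark a match to any of 4 motifs searched on both strands, the CCAAT box (CCAAT), the GC box (GGGCGG), the TATA box (TATAAA) and the AP-1 site (TGANTCA).
Pdgfc: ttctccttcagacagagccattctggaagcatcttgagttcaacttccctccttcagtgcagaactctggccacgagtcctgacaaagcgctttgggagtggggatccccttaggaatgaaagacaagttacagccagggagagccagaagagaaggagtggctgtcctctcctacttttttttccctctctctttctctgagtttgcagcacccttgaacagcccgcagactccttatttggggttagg
Pdgfd: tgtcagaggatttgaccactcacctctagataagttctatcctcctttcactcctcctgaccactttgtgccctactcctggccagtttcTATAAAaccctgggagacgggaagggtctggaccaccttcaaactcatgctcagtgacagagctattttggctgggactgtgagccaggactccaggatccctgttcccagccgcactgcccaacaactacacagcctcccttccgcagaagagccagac
The Pdgfd window held 1 match, a TATA box whose first base lies at position -160 from the start site, and the Pdgfc window held 0. Over all 32851 windows of the same 250 bases, 33.8% held a CCAAT box, 32.7% a GC box, 12.4% a TATA box and 6.75% an AP-1 site. The G and C content was 50.8% for Pdgfc and 53.6% for Pdgfd, against a median of 52.4% over all windows.

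RNA came from whole tumors that were not sorted, and poly(A) libraries without strand information were sequenced. Reads counted on genes numbered 19845923 to 33137609 per tumor. They made up 88.4% to 89.4% of the mapped reads of no-dox tumors, 82.2% to 87.1% of plus-dox and 81.1% to 85.8% of off-dox ones, so this share sets every no-dox tumor apart from the others. Trp53, the gene carried by the transgene, had 47.7 ± 7.3, 48.5 ± 6.4 and 44.0 ± 1.7 RPKM in the 3 groups (SD, n = 4 each) and so could not check the labels. RPKM, as the authors computed it, is coverage in reads per kilobase of exon, scaled to the mapped reads of the tumor. All 12 epithelial markers were detected, as the label of a pancreatic cancer line requires, but plus-dox tumor 2 and off-dox tumor 4 had the lowest epithelial list means, 4.28 and 5.97 log2 CPM (counts scaled to library size), against 6.46 to 8.18 in the other 10 tumors. Results that rest on these tumors are given with and without them.

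All 6 genes were detected in all 12 tumors, with 197 to 5345 counts per gene and tumor, and all passed the filter on low counts. On the RPKM scale, Pdgfa (33.8 on average over the tumors) and Pdgfc (30.4) were the most abundant, followed by Pdgfd (17.4), Pdgfrb (17.3), Pdgfb (14.7) and Pdgfra (6.12). Either Pdgfa or Pdgfc was the highest of the 6 in 12 of 12 tumors, but their order was not fixed, as Pdgfa was above Pdgfc in 5 of 12. Pdgfd, Pdgfrb and Pdgfb did not have a fixed order either, with Pdgfd above Pdgfrb in 6 of 12 and Pdgfrb above Pdgfb in 8 of 12 tumors. Pdgfrb was above Pdgfra in 12 of 12 tumors. Pdgfra was the lowest in 10 of 12, and in plus-dox tumor 2 and off-dox tumor 4 Pdgfd was. The genes also differed in how much they varied. The highest tumor had 1.64 times the RPKM of the lowest for Pdgfb, 2.24 times for Pdgfa, 2.28 times for Pdgfrb, 2.45 times for Pdgfra, 2.75 times for Pdgfc and 10.8 times for Pdgfd.

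**Figure D1:**
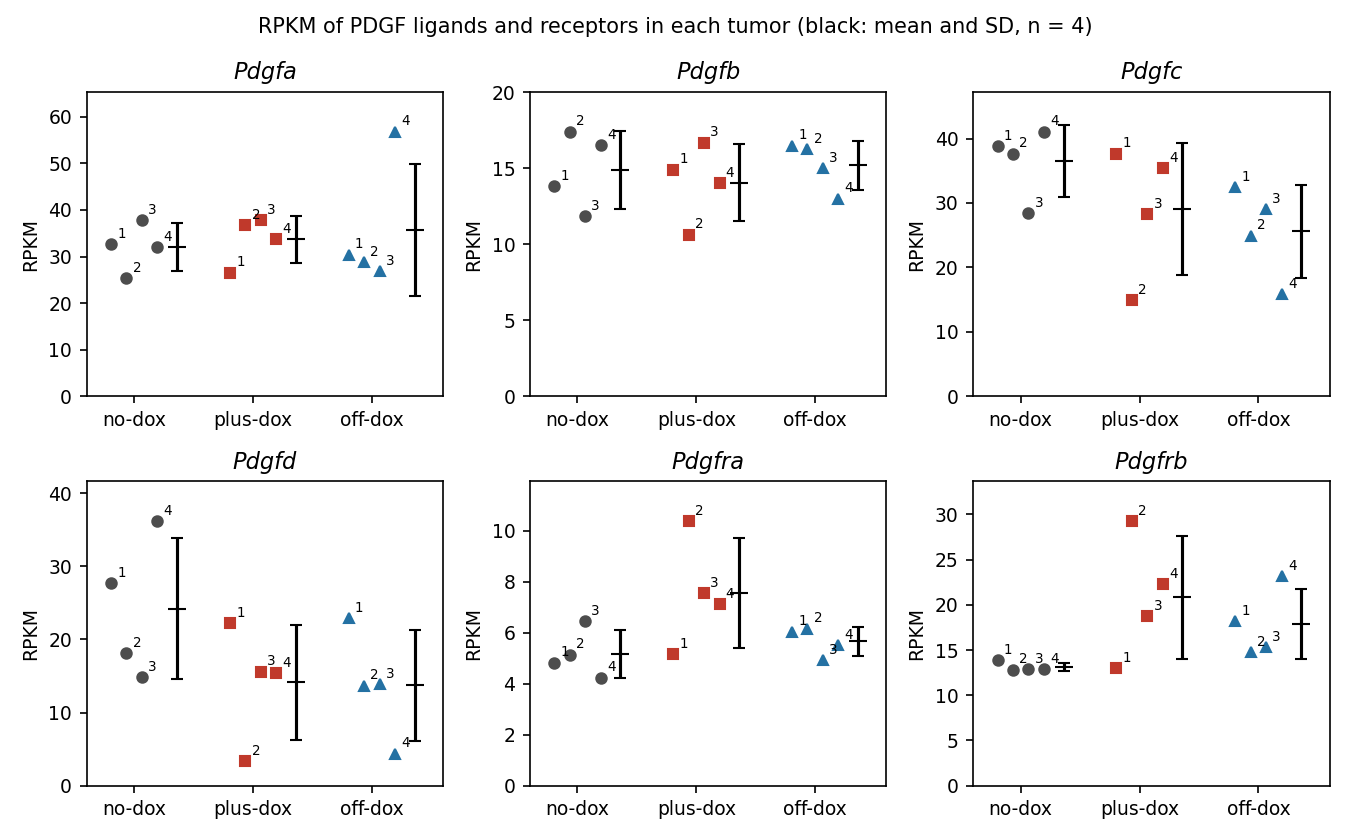
RPKM (y axis, from 0) of each of the 6 genes in each tumor, by group (x axis), with the tumor's number beside its point and the group mean and SD (n = 4) in black. Pdgfrb was higher in every off-dox tumor (14.8 RPKM or more) than in every no-dox tumor (13.9 or less), and plus-dox tumor 2 and off-dox tumor 4 had the lowest Pdgfc and Pdgfd.

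Pdgfa (mm9 chromosome 5, 139452929 to 139470907) encodes the A chain, which binds the alpha receptor alone. It had 32.8, 25.3, 37.9 and 32.0 RPKM in no-dox tumors 1 to 4, 26.6, 36.7, 37.8 and 33.7 in plus-dox tumors and 30.4, 28.8, 26.96 and 56.8 in off-dox tumors. The groups overlapped, and off-dox tumor 4 lay far above the rest of its group. Group means were 32.0 ± 5.1 (no-dox), 33.7 ± 5.1 (plus-dox) and 35.8 ± 14.1 RPKM (off-dox, SD, n = 4 each).

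Pdgfb (chromosome 15, 79826306 to 79845238) encodes the B chain, which binds both receptors. Its RPKM was 13.8, 17.4, 11.8 and 16.5 in no-dox tumors 1 to 4, 14.9, 10.6, 16.7 and 14.0 in plus-dox tumors and 16.5, 16.3, 15.03 and 13.0 in off-dox tumors. It was the steadiest of the 6 genes, and no group stood apart. The group means were 14.9 ± 2.5, 14.1 ± 2.5 and 15.2 ± 1.6 RPKM.

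Pdgfc (chromosome 3, 80840338 to 81017953) encodes a latent ligand that acts on the alpha receptor once cut. It had 38.8, 37.65, 28.5 and 41.1 RPKM in no-dox tumors 1 to 4, 37.6, 14.9, 28.3 and 35.4 in plus-dox tumors and 32.4, 24.9, 29.1 and 15.9 in off-dox tumors. Apart from 28.5 RPKM in no-dox tumor 3, the no-dox tumors lay at the upper end of all values, and plus-dox tumor 2 and off-dox tumor 4 were the lowest. The means were 36.5 ± 5.5 RPKM without dox, 29.1 ± 10.2 with dox and 25.6 ± 7.1 after its removal.

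Pdgfd (chromosome 9, 6168612 to 6377519) encodes the other latent ligand, which acts on the beta receptor. RPKM values were 27.7, 18.1, 14.9 and 36.2 in no-dox tumors 1 to 4, 22.3, 3.34, 15.6 and 15.4 in plus-dox tumors and 22.9, 13.7, 13.9 and 4.40 in off-dox tumors. Plus-dox tumor 2 and off-dox tumor 4 were again the lowest, and the remaining 10 tumors overlapped across the groups. The group means were 24.2 ± 9.7, 14.2 ± 7.9 and 13.7 ± 7.6 RPKM, so the SD within each group was large relative to the differences between them. The span of Pdgfd holds a small gene, Ddi1, whose counts ran from 0 to 13 per tumor, and counting used no strand.

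Pdgfra (chromosome 5, 75548316 to 75594229) encodes the alpha receptor. It had 4.83, 5.14, 6.45 and 4.24 RPKM in no-dox tumors 1 to 4, 5.15, 10.4, 7.56 and 7.11 in plus-dox tumors and 6.04, 6.16, 4.91 and 5.50 in off-dox tumors. The 3 highest values were those of plus-dox tumors 2, 3 and 4, while plus-dox tumor 1 was above 4 of the 8 tumors of the other groups. Group means were 5.16 ± 0.93 RPKM (no-dox), 7.55 ± 2.16 (plus-dox) and 5.66 ± 0.57 (off-dox).

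Pdgfrb (chromosome 18, 61204804 to 61244721) encodes the beta receptor. It had 13.9, 12.8, 12.9 and 12.9 RPKM in no-dox tumors 1 to 4, 13.0, 29.3, 18.8 and 22.3 in plus-dox tumors and 18.2, 14.8, 15.4 and 23.2 in off-dox tumors. Plus-dox tumor 1 lay within the narrow range of the no-dox tumors and the other 3 plus-dox tumors above it. No off-dox tumor overlapped the no-dox range. Because the tumors were sequenced whole, fewer receptor-bearing cells and less receptor RNA per cell cannot be told apart.

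The question put to these groups was what mutant p53 does to the transcriptome and what remains after it is switched off. All tumors carried the transgene, so effects of mutant p53 and of dox itself cannot be told apart in comparisons with no-dox tumors. The labels give sucrose for the dox-treated groups only. Between plus-dox and no-dox tumors, 0 of the 6 genes were called. A call took the study's limits (mean RPKM over 0.25, exonic length over 250 bp, more than 1.5-fold, adjusted p under 0.1), here with edgeR's quasi-likelihood test over 17561 genes. That test called 0% of all genes in this comparison, while DESeq2 called 128 genes (90 with moderated fold changes) and limma-voom 112, none of them a PDGF gene. At an unadjusted p under 0.05, 2 of the 6 genes passed, both receptors, against 13.7% of all genes (2400). Pdgfrb was higher in plus-dox tumors by a log2 fold change of 0.68 (standard error 0.22, 95% interval 0.20 to 1.16, edgeR adjusted p = 0.33). Pdgfra was higher by 0.56 on the log2 scale (standard error 0.20, interval 0.12 to 1.00, edgeR adjusted p = 0.33). Neither difference passed the adjustment, in a fit whose smallest adjusted p over all genes was 0.32. The adjusted p of Pdgfrb and Pdgfra was 0.14 and 0.19 with DESeq2 and 0.11 and 0.12 with limma-voom. Without plus-dox tumor 2 and off-dox tumor 4 the edgeR log2 fold changes were 0.46 for Pdgfrb and 0.36 for Pdgfra. Vessel cell markers moved the same way in this comparison, and so did other lists. Of 12 endothelial genes 12 had a log2 fold change above 0 and 7 an unadjusted p under 0.05 (median 0.53), and of 12 mural genes 12 and 6 (median 0.63), where 9031 of all 17561 genes were above 0. Genes of a list vary together, so these counts are not independent. The list means overlapped between the groups (exact permutation p = 0.11, adjusted 0.34, for the endothelial and 0.057, adjusted 0.26, for the mural list). Plus-dox tumor 2 had an endothelial mean of 5.26 log2 CPM, against 4.02 to 4.59 in the other plus-dox tumors. Of 12 fibroblast genes 10 were above 0 and 4 had an unadjusted p under 0.05 (median 0.55). Of 12 skeletal muscle genes these were 12 and 3 (median 1.59), and of 7 platelet genes 6 and 2 (median 0.37). Macrophage genes were mixed (7 of 12 above 0). Few epithelial (1 of 12), adipocyte (1 of 10) and epidermis genes (1 of 7) were above 0. The adipocyte list mean went the other way, 0.27 higher in plus-dox tumors (exact permutation p = 0.94). The part of these cells in the receptor differences was not tested.

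The ligands gave wide intervals around 0 in the same comparison. The log2 fold change was 0.09 (interval -0.46 to 0.63) for Pdgfa and -0.07 (-0.41 to 0.27) for Pdgfb. It was -0.32 (-0.89 to 0.24) for Pdgfc and -0.77 (-1.94 to 0.39) for Pdgfd, and without plus-dox tumor 2 and off-dox tumor 4 it was -0.11 and -0.45. Their edgeR adjusted p-values lay between 0.51 and 0.88. A 1.5-fold difference in either direction was outside the interval for Pdgfb alone.

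**Figure D2:**
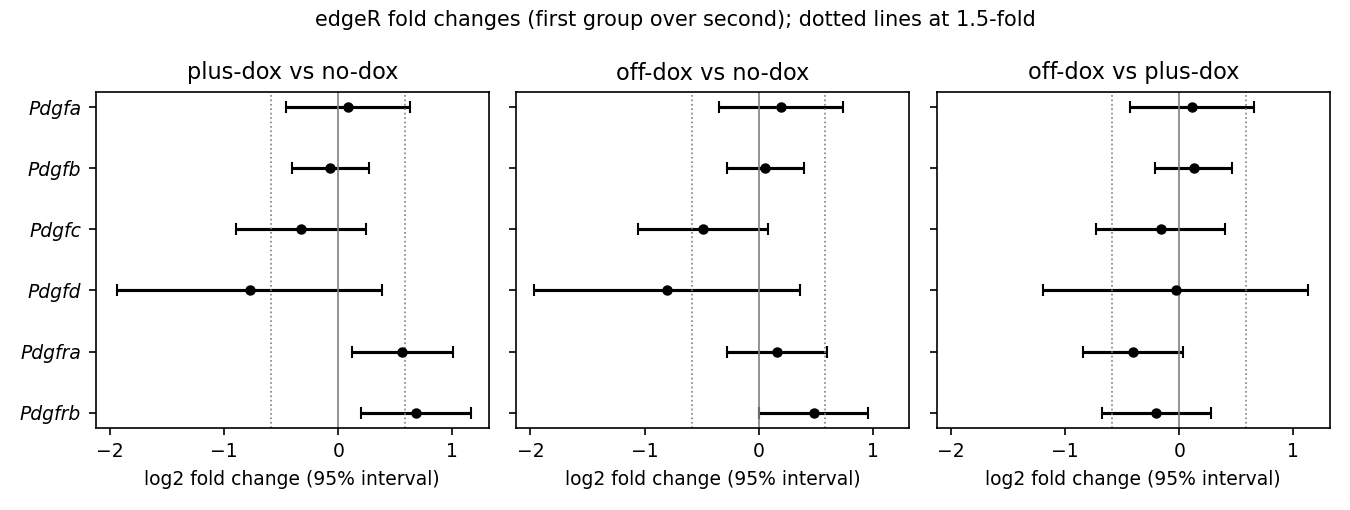
Log2 fold changes (x axis) of the 6 genes (y axis) in the 3 comparisons, with 95% intervals from edgeR's fit of 12 tumors and dotted lines at 1.5-fold. Only the intervals of Pdgfra and Pdgfrb in plus-dox vs no-dox lie clear of 0, before adjustment over 17561 genes.

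Between off-dox and no-dox tumors, 0 of 6 genes were called, where 1.34% of all genes were (235, of which 181 were higher off dox). At an unadjusted p under 0.05, 0 of 6 passed, against 20.4% of all genes. Pdgfrb was 0.48 higher on the log2 scale (standard error 0.22, interval from just under 0 to 0.96, edgeR adjusted p = 0.25). Its RPKM in the 4 off-dox tumors lay above that in all 4 no-dox tumors, as it did for 4.99% of all genes, which were apart in this direction. Pdgfc was lower by -0.49 (interval -1.06 to 0.08, adjusted p = 0.31) and Pdgfd by -0.80 (interval -1.97 to 0.36, adjusted p = 0.41) in edgeR's test, with overlapping groups. Pdgfra differed by 0.16, Pdgfa by 0.20 and Pdgfb by 0.06 on the log2 scale, with edgeR adjusted p-values of 0.68 to 0.86. Without plus-dox tumor 2 and off-dox tumor 4, Pdgfa turned to -0.14, Pdgfrb came to 0.31, Pdgfc to -0.32 and Pdgfd to -0.51.

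Between off-dox and plus-dox tumors 0 of the 6 genes and 0% of all genes were called by edgeR. An unadjusted p under 0.05 was reached by 0 of 6 genes and by 3.06% of all genes (537), and DESeq2 called 6 genes (4 with moderated fold changes), none a PDGF gene. limma-voom called 0. The largest difference was that of Pdgfra, lower off dox by -0.40 on the log2 scale (standard error 0.20, interval -0.84 to 0.04, edgeR adjusted p = 1.0). It was -0.20 without plus-dox 2 and off-dox 4, no larger than that of Pdgfc (-0.21), and 0.037 with the fibroblast list as covariate. For Pdgfrb it was -0.20 (interval -0.68 to 0.28) over all tumors and 0.14 with that covariate. In a joint test of the 3 groups, 0 of 6 genes had an adjusted p under 0.1, and 2 of 6 had an unadjusted p under 0.05 against 14.9% of all genes. These were again Pdgfrb (edgeR adjusted p = 0.29) and Pdgfra (edgeR adjusted p = 0.31).

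The makeup of the ligand pool can be read from the RPKM values within each tumor. The 4 ligands summed to 93.0 to 125.8, 65.6 to 101.4 and 83.7 to 102.3 RPKM in the 3 groups. Pdgfc made up 33.9% ± 3.2, 31.1% ± 6.7 and 28.3% ± 7.4 of this sum (SD, n = 4 each). Pdgfa made up 55.9% of it in plus-dox tumor 2 and 63.0% in off-dox tumor 4, against 25.5% to 40.7% in the other 10 tumors. Pdgfd made up 5.10% and 4.88% in those tumors and 15.6% to 28.8% elsewhere. Pdgfb kept to 12.2% to 19.4% in all tumors. On the receptor side, Pdgfrb RPKM was 2.005 to 3.04, 2.49 to 3.13 and 2.40 to 4.21 times that of Pdgfra in the 3 groups, and the groups overlapped.

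Whether the receptors follow fibroblast content was asked with a list of 12 fibroblast genes that holds neither receptor. It includes the collagens Col3a1 (503 RPKM on average) and Col1a2 (479), and the mean log2 CPM of the list stands for fibroblast content. The list's summed RPKM was 1195 to 2233, 1728 to 3329 and 1409 to 1677 in the 3 groups, and none of its genes was at 0. Its mean was 0.38 higher in plus-dox than no-dox tumors on the log2 scale (exact permutation p = 0.26) and 0.49 lower in off-dox than plus-dox tumors (difference -0.49, exact permutation p = 0.057, adjusted 0.26 over 27 list tests). Across the 12 tumors Pdgfra rose with the fibroblast list, with Pearson's r = 0.85 (permutation p = 0.00067, adjusted 0.012) and Spearman's rho = 0.66 (permutation p = 0.022, adjusted 0.12). Adjustment was over 69 relations, 54 of a PDGF gene with a cell type list and 15 between PDGF genes. The r of Pdgfra was 0.72 without the tumors farthest from the median on the list, no-dox 3 and plus-dox 2, 0.73 without plus-dox 2 and off-dox 4, and 0.84 after each group's mean was subtracted.

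Pdgfrb followed the fibroblast list less closely, with r = 0.57 (permutation p = 0.053, adjusted 0.12) and rho = 0.42 (permutation p = 0.18, adjusted 0.31). Its r was 0.52 without no-dox 3 and plus-dox 2 and 0.36 without plus-dox 2 and off-dox 4. Leaving out no-dox tumor 3, which had a high fibroblast mean (8.50 log2 CPM) and an ordinary Pdgfrb level, brought r to 0.73 (permutation p = 0.0082), and leaving out plus-dox tumor 2 brought it to 0.28. It was 0.37 with the collagens left out of the list (permutation p = 0.24) and 0.46 with the list's median (permutation p = 0.14). The difference between the receptors' correlations was not tested.

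Both receptors tracked the lists of vessel cells. With the endothelial list (12 genes, among them Egfl7 and the junction cadherin Cdh5, summed RPKM 57.3 to 83.7, 74.4 to 196.1 and 69.2 to 95.04 in the 3 groups), r was 0.90 for Pdgfra (permutation p = 0.00014, adjusted 0.0048, rho = 0.83, permutation p = 0.0012) and 0.85 for Pdgfrb (permutation p = 0.00053, adjusted 0.012, rho = 0.83, permutation p = 0.0015). Without plus-dox tumors 2 and 3, the farthest from the median, these r were 0.69 and 0.75. They were 0.90 and 0.66 without plus-dox 2 and off-dox 4. With the mural list (12 genes, among them the smooth muscle genes Tagln and Acta2), r was 0.81 for Pdgfra (permutation p = 0.0014, adjusted 0.015, rho = 0.68, permutation p = 0.019) and 0.80 for Pdgfrb (permutation p = 0.0020, adjusted 0.015, rho = 0.86, permutation p = 0.00073). Without plus-dox tumors 2 and 3 they were 0.52 and 0.74, and without plus-dox 2 and off-dox 4 they were 0.75 and 0.70. The mural mean was 0.40 higher in off-dox than no-dox tumors, with no overlap (exact permutation p = 0.029, the smallest that 4 against 4 tumors allow, adjusted 0.19), the same pair of groups between which Pdgfrb did not overlap. Of its 12 genes 10 had a log2 fold change above 0 (median 0.46), as did 8905 of all 17561 genes. An unadjusted p under 0.05 was reached by 3 of the 12, all higher, and by 1922 of all genes in that direction. The mural genes not above 0 were the 2 most abundant of the list, with log2 fold changes of -0.19 for Tagln and -0.23 for Acta2. The summed RPKM of the mural list was 315.1 to 543.8 without dox and 316.3 to 458.2 after its removal. The part of these cells in the Pdgfrb difference was not tested. All lists come from the same 12 libraries and share their normalization, and which cell type the receptors follow was not tested.

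**Figure D3:**
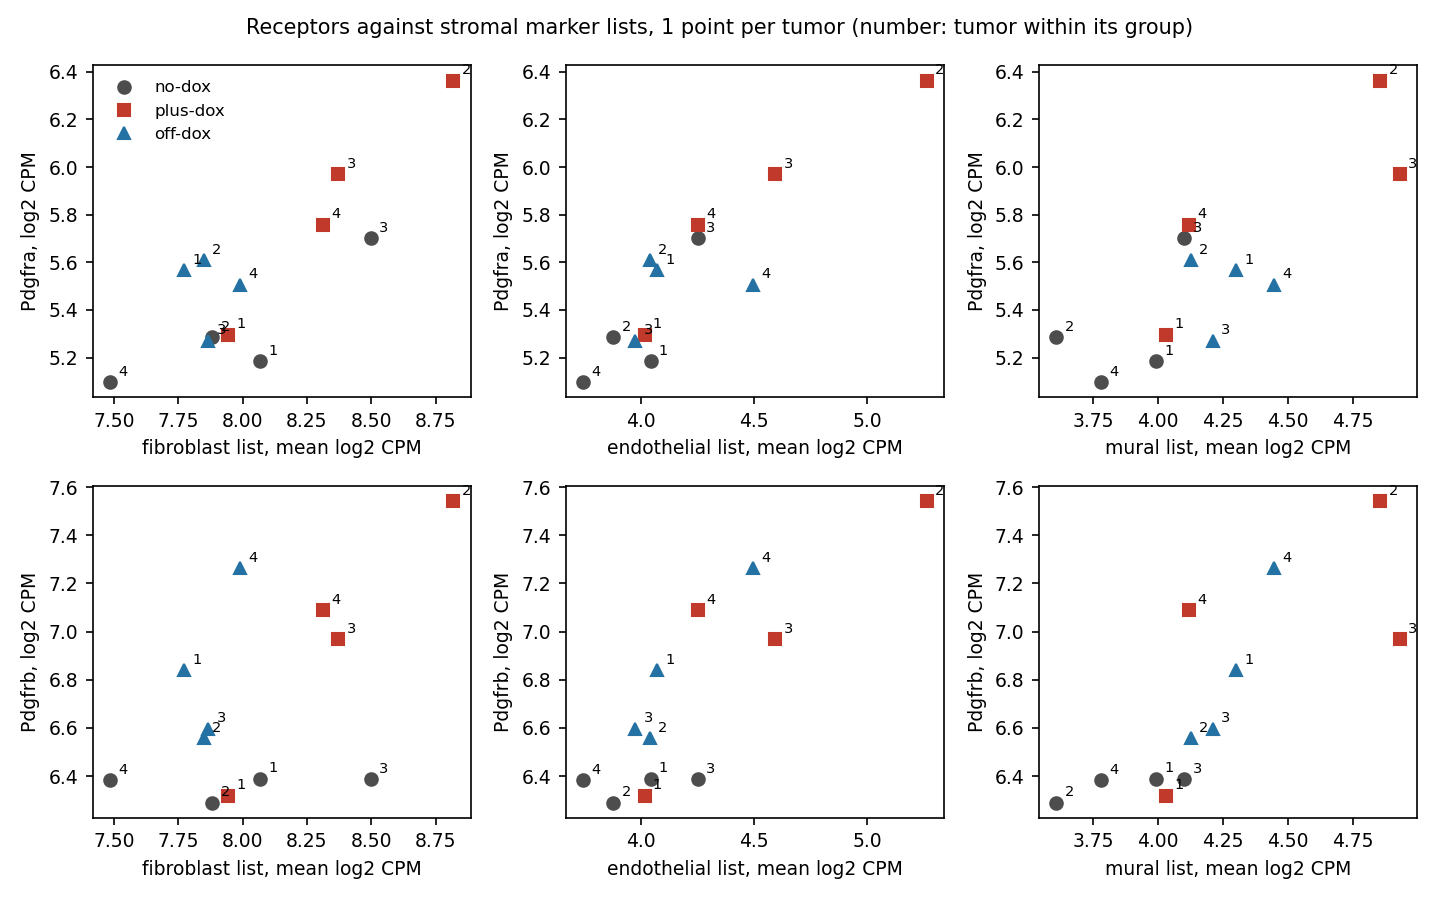
Log2 CPM of Pdgfra (top) and Pdgfrb (bottom) against the mean log2 CPM of the fibroblast, endothelial and mural lists, 1 point per tumor, colored by group. Plus-dox tumor 2 is the highest for both receptors and has the highest fibroblast and endothelial means, and no-dox tumor 3 has a high fibroblast mean with a Pdgfrb level like that of the other no-dox tumors.

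Set relative to the fibroblast list, both receptors had overlapping ranges in the 3 groups when no tumor was left out. The log2 CPM of Pdgfra minus the list mean was -2.67 ± 0.22, -2.51 ± 0.11 and -2.38 ± 0.19 in the 3 groups (SD, n = 4 each). That of Pdgfrb was -1.62 ± 0.41, -1.38 ± 0.18 and -1.06 ± 0.27. The plus-dox minus no-dox difference was 0.15 for Pdgfra (exact permutation p = 0.31, adjusted 0.34) and 0.24 for Pdgfrb (exact permutation p = 0.34, adjusted 0.34). The off-dox minus no-dox difference was 0.28 for Pdgfra (exact permutation p = 0.11, adjusted 0.29) and 0.57 for Pdgfrb (exact permutation p = 0.086, adjusted 0.29). Off-dox minus plus-dox gave 0.13 and 0.33 (exact permutation p = 0.29 and 0.14, adjusted 0.34 and 0.29). Of these 6 tests, 0 passed, and all group ranges overlapped. The smallest p the test allows is 0.029, and 1 such p alone would not come under 0.1 after adjustment over the 6. A single receptor difference could therefore not pass, whatever its size. The size of these differences moved with single tumors and with the list. Between off-dox and no-dox tumors, the overlap of Pdgfrb came from no-dox tumor 4 (-1.10) alone. The other no-dox tumors (-1.68, -1.59 and -2.11) lay below every off-dox tumor (-1.29 to -0.73). For plus-dox minus no-dox, Pdgfrb was at 0.076 without no-dox tumor 3 and 0.41 without no-dox tumor 4, and Pdgfra at 0.080 without no-dox 1 and 0.24 without no-dox 4. With the collagens left out of the list they were 0.41 and 0.33. With the list's median in place of its mean, the plus-dox minus no-dox difference of Pdgfra was 0.27 at the smallest p the test allows (exact permutation p = 0.029).

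The same question was put to the count model by adding the fibroblast mean as a covariate. Relative to no-dox tumors, plus-dox tumors then differed by 0.38 for Pdgfrb and 0.23 for Pdgfra on the log2 scale (edgeR adjusted p = 0.54 and 0.56). Between off-dox and no-dox tumors it was 0.53 for Pdgfrb (edgeR adjusted p = 0.11) and 0.26 for Pdgfra (adjusted p = 0.20). In that fit 1 of the 6 genes, Pdgfc, was called between off-dox and no-dox tumors, at -0.61 on the log2 scale (standard error 0.19, edgeR adjusted p = 0.089), where 4.48% of all genes were called. Pdgfd was at -1.07 (standard error 0.41, edgeR adjusted p = 0.13) and was not called.

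Among the 6 genes, the latent ligands were the most closely related pair, but each had closer genes outside the set. The 5 genes most like Pdgfc had r of 0.98 to 0.99 with it, and so had the 5 most like Pdgfd with that gene. Across the 12 tumors Pdgfc and Pdgfd had r = 0.96 (permutation p = 1e-05, the smallest that 100000 permutations can give, adjusted 0.00069) and rho = 0.92 (permutation p = 4e-05, adjusted 0.0028). Without plus-dox 2 and off-dox 4, the tumors farthest from the median on Pdgfd, r was 0.81, and with group means subtracted it was 0.97. Without those 2 tumors, the genes most like Pdgfc or Pdgfd kept r of 0.90 to 0.97 with them. The promoter windows printed above belong to Pdgfc and Pdgfd. Both were negatively related to Pdgfrb, with r = -0.78 for Pdgfc (permutation p = 0.0033, adjusted 0.015) and -0.80 for Pdgfd (permutation p = 0.0022, adjusted 0.015). Without plus-dox 2 and off-dox 4 those relations came to -0.31 and -0.35, so they rest on these 2 tumors. The receptors were related to each other with r = 0.77 (permutation p = 0.0032, adjusted 0.015), and with 0.73 without these 2 tumors. In all, 4 of the 15 pairs had an adjusted p under 0.05 by r and 1 by rho.

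Pdgfb, Pdgfc and Pdgfd rose with the mean of the epithelial list, 12 genes led by the keratins Krt18 (685 RPKM on average) and Krt8 (674). The summed RPKM of these genes was 2385 to 3317, 1368 to 2147 and 1128 to 2823 in the 3 groups. In whole tumors, fewer epithelial cells and less of these RNAs per cell cannot be told apart. The r was 0.84 for Pdgfd (permutation p = 0.0017, adjusted 0.015), 0.82 for Pdgfc (permutation p = 0.0029, adjusted 0.015) and 0.80 for Pdgfb (permutation p = 0.0023, adjusted 0.015). The rho was 0.63, 0.56 and 0.74 (permutation p = 0.031, 0.062 and 0.0079, adjusted 0.12, 0.16 and 0.068). The farthest tumors on the epithelial list were plus-dox 2 and off-dox 4, and without them r fell to 0.30 for Pdgfd and 0.24 for Pdgfc, so both relations rest on these tumors. For Pdgfb it was 0.62 without them. Pdgfc and Pdgfd were also negatively related to the endothelial list, with r = -0.81 and -0.83 (permutation p = 0.0027 and 0.0019, adjusted 0.015 each), which came to -0.48 and -0.49 without plus-dox 2 and off-dox 4. Pdgfa had r = -0.41 with the epithelial list over 12 tumors (permutation p = 0.17) and 0.03 without these 2 tumors. Pdgfb further fell as the fibroblast list rose, with r = -0.73 (permutation p = 0.0074, adjusted 0.030) that came to -0.32 without no-dox 3 and plus-dox 2.

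**Figure D4:**
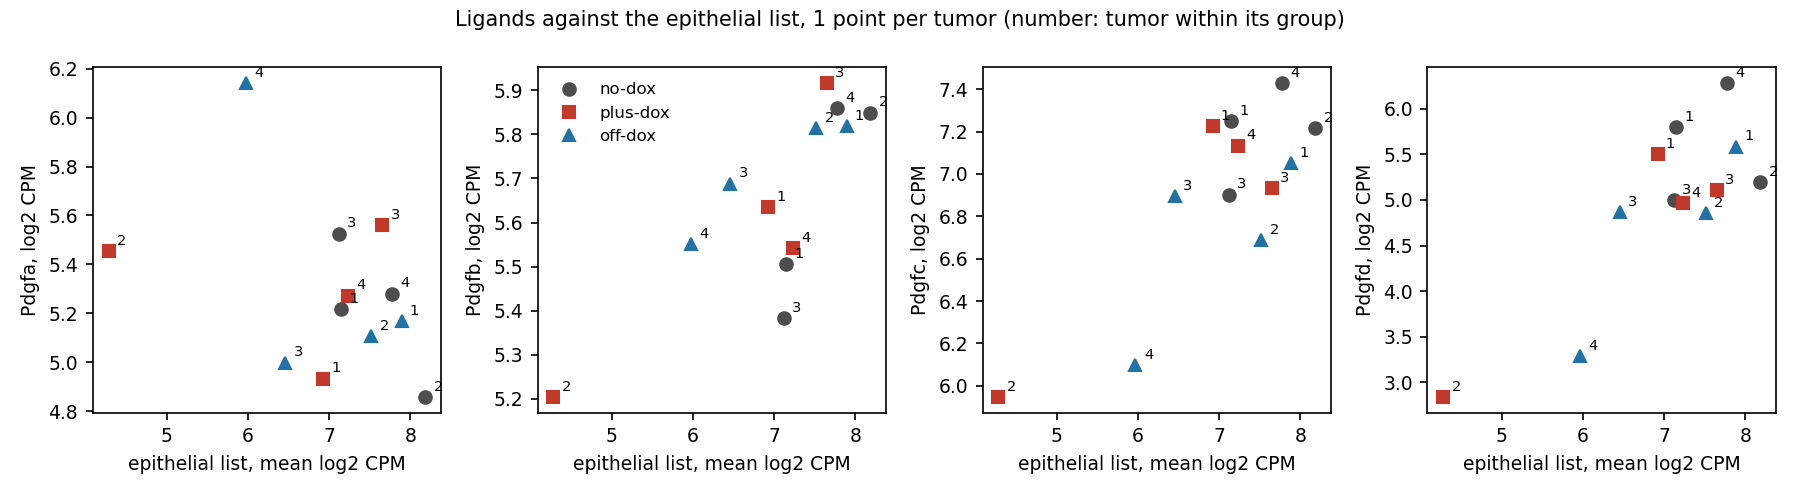
Log2 CPM of each ligand gene against the mean log2 CPM of the epithelial list, 1 point per tumor, colored by group. For Pdgfc and Pdgfd, plus-dox tumor 2 and off-dox tumor 4 lie far to the lower left of the other 10 tumors, and for Pdgfb the points spread along the whole range.

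The remaining lists covered other cells that a subcutaneous tumor can hold. For macrophages (Lyz2 and C1qa the most abundant of 12 markers), r lay between -0.50 and 0.10 over the 6 genes, and for the 7 platelet genes tested (Pf4 the most abundant) between -0.33 and 0.56, with 0 of these 12 relations at an adjusted p under 0.05. Skeletal muscle genes (Acta1, Mylpf), whose summed RPKM ran from 11.1 to 1396 over the tumors, gave r between -0.42 and 0.36. Every plus-dox tumor had a higher mean log2 CPM of these genes than every no-dox tumor (difference 2.27, exact permutation p = 0.029, adjusted 0.19). In off-dox relative to no-dox tumors 9 of the 12 muscle genes had an unadjusted p under 0.05, all higher, against 20.4% of all genes in either direction, and Actn3 was called (4.53 on the log2 scale, edgeR adjusted p = 0.088). The muscle list means of these groups overlapped (difference 2.21, exact permutation p = 0.23, adjusted 0.51). Off-dox tumor 4 (0.98 log2 CPM) lay within the no-dox range of 0.14 to 4.02. The 10 adipocyte genes (Cfd, Fabp4) were related to Pdgfb, with r = -0.77 (permutation p = 0.0034, adjusted 0.015) and rho = -0.86 (permutation p = 0.00067, adjusted 0.017). This r was -0.67 without no-dox 4 and plus-dox 3, the farthest tumors, and -0.89 without plus-dox 2 and off-dox 4. The 7 epidermis genes tested (Krt14, Krt10) were related to Pdgfrb, with r = -0.76 (permutation p = 0.0031, adjusted 0.015) and rho = -0.78 (permutation p = 0.0043, adjusted 0.049). This r was -0.75 without no-dox 1 and plus-dox 2, -0.61 without plus-dox 2 and off-dox 4, and -0.53 with group means subtracted. The epidermis mean was higher in all no-dox than in all plus-dox tumors (difference -0.86, exact permutation p = 0.029, adjusted 0.19), and likewise higher than in all off-dox tumors (difference -0.68, exact permutation p = 0.029, adjusted 0.19). Krt14 was called, lower in off-dox than no-dox tumors by -1.72 on the log2 scale (standard error 0.435, edgeR adjusted p = 0.090). In that comparison 1.34% of all genes were called. The calls of Krt14 and Actn3 were lost in the fits that called 0 genes. These left out no-dox tumor 1, 2 or 4, plus-dox 4, or off-dox 2, 3 or 4, or added the share of reads on genes or the replicate number. Of all 54 relations with lists, 13 had an adjusted p under 0.05 by r and 5 by rho.

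**Figure D5:**
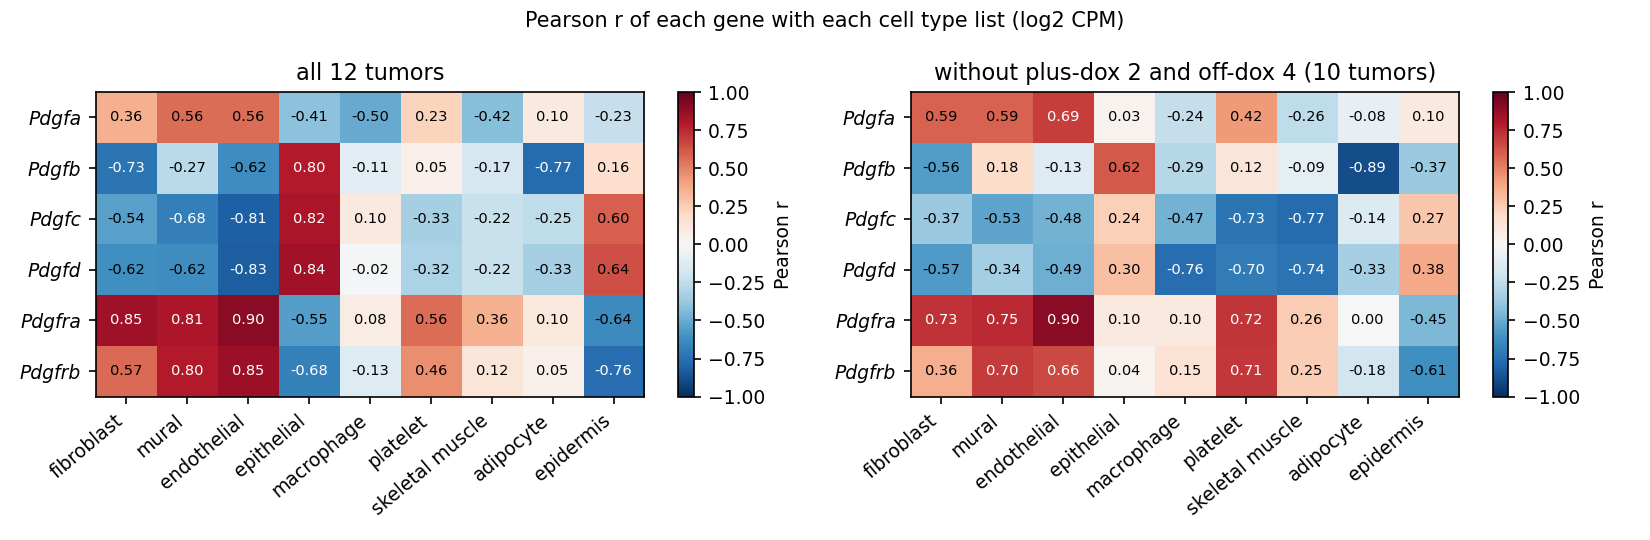
Pearson's r (color and number) of each of the 6 genes (rows) with each of 9 cell type lists (columns), over all 12 tumors (left) and without plus-dox tumor 2 and off-dox tumor 4 (right). The relations of Pdgfc and Pdgfd with the epithelial list go from 0.82 and 0.84 to 0.24 and 0.30, and that of Pdgfra with the endothelial list is 0.90 in both.

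For each PDGF gene, the 5 genes with the most similar profile were taken among 12693 genes with a mean RPKM over 1, by Pearson's r of log2 CPM over the 12 tumors. For Pdgfra they were Col5a2 (0.94), Aldh1l2 (0.94), Lox (0.94), Atp8b1 (0.94) and Fkbp10 (0.93). Of these, Col5a2 encodes a fibrillar collagen chain, Lox the enzyme that crosslinks collagen and Fkbp10 a chaperone of procollagen. For Pdgfrb they were Sept5 (0.94), Nynrin (0.91), Elk3 (0.91), Sec24d (0.91) and Fkbp10 (0.90), so Fkbp10 was on both lists. Without plus-dox 2 and off-dox 4, the r of these genes were 0.89 to 0.94 for Pdgfra and 0.76 to 0.84 for Pdgfrb. For Pdgfc they were Fjx1, Tff2, Fgfr2, Bcam and Pipox (0.98 to 0.99), with Tff2 a secreted trefoil peptide and Fgfr2 a receptor for fibroblast growth factors. For Pdgfd they were Srd5a2, Abp1, Lcn2, Cd14 and Reln (0.98 to 0.99), where Lcn2 encodes lipocalin 2. Pdgfb was most like Gm7694, Fam160a2, Nub1, Gm11110 and Zbtb10 (0.93 to 0.95). Pdgfa was most like Lor, Tnnt2, Gm12505, Tigit and 4833439L19Rik (0.90 to 0.92), and without plus-dox 2 and off-dox 4 these r were 0.75 to 0.81.

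Among the 7 proteases that process PDGF chains, 0 were called in any comparison. Plat, tissue plasminogen activator, which cuts the C chain, was the most abundant, with 68.0, 61.1, 118.7 and 56.1 RPKM in no-dox tumors, 60.8, 175.4, 63.3 and 63.7 in plus-dox tumors and 43.5, 65.6, 45.1 and 165.1 in off-dox tumors. Plus-dox tumor 2 and off-dox tumor 4, the tumors with the least Pdgfc, thus had the most Plat. Plau, urokinase, which cuts the D chain, had 31.4 ± 2.9, 34.2 ± 10.1 and 33.7 ± 5.4 RPKM, and the convertase Furin 40.4 ± 6.0, 44.1 ± 4.6 and 41.6 ± 4.5. Pcsk5, another convertase, was lower in off-dox than plus-dox tumors by -0.65 on the log2 scale (edgeR adjusted p = 1.0), and Pcsk6 had 6.16, 5.45 and 4.76 RPKM on average.

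Of 9 binding partners and coreceptors, 0 were called. Between plus-dox and no-dox tumors 4 of the 9 had an unadjusted p under 0.05, all higher, as did 1405 of all 17561 genes in that direction, and the list's median log2 fold change was 0.44 against 0.01 over all genes tested. Lrp1, a scavenger receptor that partners with the beta receptor, had 29.6 ± 3.6, 45.3 ± 10.3 and 41.6 ± 1.7 RPKM, log2 fold changes of 0.62 (edgeR adjusted p = 0.32) and 0.51 (adjusted p = 0.14) relative to no-dox. Hspg2, the heparan sulfate proteoglycan perlecan, had 20.8 ± 1.2, 31.6 ± 4.6 and 28.8 ± 2.6 RPKM. Its off-dox difference of 0.49 had an edgeR adjusted p of 0.097 but was under 1.5-fold. A2m, a plasma protein that binds PDGF, averaged 0.97, 2.47 and 0.99 RPKM. Sparc, a matrix protein that binds the B chain, had 1043 ± 264, 1218 ± 354 and 817 ± 54 RPKM, Thbs1 (thrombospondin 1) 58.3 ± 5.0, 75.5 ± 16.0 and 61.4 ± 10.4, and the hyaluronan receptor Cd44 140 ± 18, 138 ± 41 and 131 ± 48.

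Of 20 genes for proteins that act just below the receptors, 1 was called, between off-dox and no-dox tumors, where 1.34% of all genes were. Cbl, a ubiquitin ligase that sends activated receptors to degradation, had 4.60, 4.61, 5.20 and 5.27 RPKM in no-dox tumors, 6.02, 7.85, 7.27 and 7.29 in plus-dox tumors and 6.87, 8.51, 7.30 and 10.6 in off-dox tumors. It was higher in off-dox than no-dox tumors by 0.79 on the log2 scale (standard error 0.16, edgeR adjusted p = 0.081) and differed by 0.54 between plus-dox and no-dox tumors (edgeR adjusted p = 0.32). The count of all genes called between these groups was 0 when no-dox tumor 1, 2 or 4, plus-dox 4, or off-dox 2, 3 or 4 was left out, so the call of Cbl was lost as well. It was also lost with the share of reads on genes as covariate and with the replicate number as a block, both of which left 0 genes called. Plcg1, a phospholipase recruited by both receptors, had 9.43 ± 0.36, 12.9 ± 1.5 and 12.5 ± 2.0 RPKM in the 3 groups (edgeR adjusted p = 0.32 and 0.12 relative to no-dox). The adaptors Crk, Shc1 and Grb2 were the most abundant of the list, and their log2 fold changes lay between -0.13 and 0.04 in the 3 comparisons. Rasa1, a brake on Ras, averaged 17.5, 18.1 and 21.6 RPKM. The list's median log2 fold change was 0.06 for plus-dox and 0.08 for off-dox tumors relative to no-dox.

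Of 15 early response genes, which growth factors induce within hours in culture, 0 were called, and the list's median log2 fold changes were 0.16, 0.05 and -0.09 in the 3 comparisons. Junb (143 ± 43, 121 ± 16 and 110.3 ± 26.7 RPKM), Ier3 and Ier2 were the most abundant. Egr2 had 2.77 ± 0.40, 4.45 ± 1.31 and 4.14 ± 0.40 RPKM (edgeR adjusted p = 0.32 and 0.15 relative to no-dox). The log2 fold change of Has2 between off-dox and plus-dox tumors was -1.15 and that of Srf, a factor that drives early genes, -0.11 (both with an edgeR adjusted p of 1.0). Of the 8 ligands of related receptors, 0 were called. Vegfa had 70.8 ± 12.0, 84.0 ± 20.3 and 101.5 ± 20.3 RPKM, and Kitl, the ligand of Kit, 26.6 ± 4.0, 20.8 ± 3.1 and 19.2 ± 2.3 (edgeR adjusted p = 0.34 and 0.13 relative to no-dox). Csf1 averaged 20.4, 24.3 and 26.98, Vegfb 14.2, 14.5 and 12.5, Vegfc 5.66, 7.28 and 7.29 and Figf (Vegfd) 4.06, 5.21 and 3.88 RPKM.

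Of the 6 related receptors, 0 were called, and all 6 had log2 fold changes above 0 relative to no-dox tumors in both dox-treated groups, with medians of 0.50 and 0.37, where 9031 and 8905 of all 17561 genes were above 0. Csf1r averaged 49.4, 54.3 and 61.4 RPKM, Flt1 5.52, 7.56 and 7.13, Kdr 2.54, 3.61 and 2.96 and Flt3 0.41, 0.57 and 0.70. Kit, the receptor closest in structure to the PDGF receptors together with Csf1r, had 0.98 ± 0.11, 1.47 ± 0.24 and 1.13 ± 0.19 RPKM (edgeR adjusted p = 0.32 with dox relative to never having had it). Kdr is on the endothelial list as well and Csf1r on the macrophage list. In the last list, of p73 and the subunits of NF-Y, which bind CCAAT boxes, 3 of 4 genes were tested and 0 called. Nfya averaged 17.2, 16.1 and 16.7, Nfyb 12.6, 10.4 and 10.9 and Nfyc 16.4, 15.7 and 13.3 RPKM.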

How the data were processed

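RNA sequencing of 12 tumors was used, 4 per group, grouped by the titles and dox times in the labels. The authors mapped single-end reads to mm9 with TopHat (version 1.4.1) and quantified each RefSeq gene, merged over isoforms, on exonic bases that no other gene covers. The deposited expected counts are base-wise coverage expressed in reads, not normalized and often not whole, and the deposited RPKM values are the same coverage per kilobase of exon, scaled to total mapped reads. Such counting discards exonic bases shared by genes and ignores strand.

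Counts were rounded and tested with edgeR (version 4.0.16, TMM, quasi-likelihood, R 4.3.3) in 1 fit of the 3 groups without covariates, over 17561 genes with at least 10 counts summed over tumors, with Benjamini-Hochberg adjustment. The test differs from the authors' DESeq2, which is an alternative (version 1.42.0, with limma 3.58.1 the third tool). Fold changes are the group named first minus the second. Log2 CPM used a prior count of 2. Correlations had two-sided permutation tests (100000 permutations) and list differences two-sided exact permutation tests (70 arrangements), computed with numpy 2.4.6 and scipy 1.17.1. The edgeR script was tested on simulated counts.

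The 6 genes and all marker and pathway lists were chosen with earlier results of these data known. Genes named beyond the 6 are Trp53, the 2 markers of each cell type list with the highest mean RPKM, the 3 genes of each pathway list with the highest mean RPKM and its 2 with the smallest unadjusted p in each comparison, and the 5 most similar genes of each PDGF gene. Ddi1, within the span of Pdgfd, and Actn3, a called muscle marker, are named as well. Equal tumor numbers did not pair tumors (mean r of deviations from group means -0.073 over 12 pairs of equal number, 0.031 over 36 of unequal number), and no tumor was a copy of another. Protein sequences were not used here. One further allele that all tumors share is not reported here.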

Additional observations from a re-analysis of the deposited data

Results flagged for a closer look

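Dixon's test at its 95% limit was applied to 51 groups, the RPKM of the 6 genes, the 9 cell type list means and the receptors relative to the fibroblast list in each group of tumors. Chance alone marks about 1 in 20. Off-dox tumor 4 stood apart for Pdgfa, with 56.8 RPKM against 26.96 to 30.4 in the other 3 off-dox tumors. No-dox tumor 1 stood apart for Pdgfrb, with 13.9 RPKM against 12.8 to 12.9 in the other 3 no-dox tumors, a gap that is small beside the range of the plus-dox and off-dox tumors.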

How the results depend on the processing

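Of the fold changes of the 6 genes under other settings, 390 kept their sign and stayed uncalled and 23 changed sign. The other was Pdgfc (-0.61) between off-dox and no-dox tumors with the fibroblast list as covariate, which made 1 PDGF gene called. With the replicate number as a block, 0 of all genes were called in each comparison and Pdgfd between off-dox and plus-dox was at 0.10 on the log2 scale. The count of all genes called moved far more. For plus-dox vs no-dox it was 128 with DESeq2, 90 with its moderated fold changes, 112 with limma-voom and 0 to 3 with 1 tumor left out. For off-dox vs no-dox (235) it was 615, 396 and 641 with those tools, 122 without a count filter, 365 with at least 10 counts in every tumor, 3 from the 8 tumors alone, 787 with the fibroblast list and 0 with the share of reads on genes as covariate, 471 without plus-dox 2 and off-dox 4, 0 at an adjusted p under 0.05, and 0 to 789 with 1 tumor left out. That count was 1 without no-dox 3, 19 without plus-dox 3 and 789 without off-dox 1. For off-dox vs plus-dox it was 6 and 4 with DESeq2 and 0 to 1 with 1 tumor left out. These causes were not tested.

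Sign changes of log2 fold changes were as follows. With the fibroblast covariate, plus-dox vs no-dox gave -0.13 for Pdgfa and 0.14 for Pdgfb, and off-dox vs plus-dox gave -0.13 for Pdgfb, 0.037 for Pdgfra and 0.14 for Pdgfrb. With the share of reads as covariate, Pdgfb was -0.15 in off-dox vs no-dox and Pdgfd 0.014 in off-dox vs plus-dox. Without plus-dox 2 and off-dox 4, Pdgfb was 0.038 in plus-dox vs no-dox, and Pdgfa -0.14 in off-dox vs no-dox and -0.18 in off-dox vs plus-dox, where limma-voom gave -0.061. With 1 tumor left out, plus-dox vs no-dox ran from -0.023 to 0.20 for Pdgfa and from -0.19 to 0.042 for Pdgfb. Off-dox vs no-dox ran from -0.15 to 0.32 for Pdgfa and from -0.021 to 0.13 for Pdgfb. Off-dox vs plus-dox ran from -0.23 to 0.23 for Pdgfa, from -0.39 to 0.26 for Pdgfd and from -0.38 to 0.014 for Pdgfrb.

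The correlation of Pdgfrb with the fibroblast list was 0.59 with group means subtracted and 0.58 with RLE normalization, both with an unadjusted permutation p under 0.05, but 0.37 with the collagens left out of the list and 0.46 with the list's median, and 0.28 to 0.73 with 1 tumor left out. Relative to that list, Pdgfra differed by 0.27 between plus-dox and no-dox with the list's median, and Pdgfrb by 0.40 to 0.74 between off-dox and no-dox with 1 tumor left out. Depth did not limit detection of the 6 genes. The intervals of Pdgfd, the gene that varied most, were the widest.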
